A study of Rattus norvegicus with 8 samples.

Results

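Transcripts of the adenosine receptors and of the enzymes that form and remove adenosine were followed in the medial thalamus of rats after brief, repeated obstruction of the trachea. The rule that picked their probes used the gene name and no measured value. The 7 genes are the receptor genes Adora1, Adora2a, Adora2b and Adora3, and the enzyme genes Nt5e, Adk and Ada. The array carried all 7, on 10 of its 41012 probes and 28 of its 43379 spots outside controls, among 35508 gene names. All 10 probes were well above background in the animal's channel on all 8 arrays, so all 7 genes entered the comparison. None of the 7 differed between occluded and control rats beyond the spread between animals. The 95% intervals around the differences reached furthest for Nt5e, to 1.43-fold on the scale of the measured ratios.

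The study used 8 male Sprague-Dawley rats of 277 g under urethane anaesthesia, each with a cuff around the trachea that could be inflated; their age was not given in the sources used here. In the 4 occlusion rats the cuff was closed for 2 to 4 breaths, opened for at least 15 breaths, and closed again over 10 min, and the brain was taken straight afterwards. In the 4 surgical controls the cuff was never closed and the brain was taken 70 min after the surgical setup. For the occlusion rats the sources used here do not give this time, and treatment and duration of anaesthesia cannot be told apart. RNA of 1 animal, labelled with Cy5, was hybridised on each array against Cy3-labelled RNA pooled from all 8 animals, and the dyes were not swapped. Every level below is therefore a log2 ratio of an animal to the pool, where 0 means the level of the pool.

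Adenosine is a signal of high energy use and low oxygen. Outside cells it is formed from released ATP in steps, the last of which, from AMP to adenosine, is carried out by the ecto-nucleotidase that Nt5e encodes. Inside cells, adenosine kinase, encoded by Adk, turns it back into AMP and is the main route of its removal in brain, where it is found largely in astrocytes. Adenosine deaminase, encoded by Ada, turns it into inosine. The receptors of Adora1 and Adora3 couple to inhibitory G proteins, and those of Adora2a and Adora2b to stimulatory ones. The Adora1 receptor is the most widespread of them in brain and holds back transmitter release, while Adora2a is known above all from striatal neurons.

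Nt5e and Adora2b are known targets of hypoxia-inducible factors, so their upstream sequences are shown here for the question of a response to obstructed breathing. Each line gives the 250 bases before the annotated start, 5′ to 3′ on the gene's strand, from RefSeq (GRCr8). Capitals mark the core of the hypoxia response element, ACGTG or GCGTG, searched on both strands, so that CACGC is GCGTG read on the other strand. The Nt5e window is chr8:98150675-98150924 (plus strand) and the Adora2b window is chr10:47439462-47439711 (plus strand).
Nt5e: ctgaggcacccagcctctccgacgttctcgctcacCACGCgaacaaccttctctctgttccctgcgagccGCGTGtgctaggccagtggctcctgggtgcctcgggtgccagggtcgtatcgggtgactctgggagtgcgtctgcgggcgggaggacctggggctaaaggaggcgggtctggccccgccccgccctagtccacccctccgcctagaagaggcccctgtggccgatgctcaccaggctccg
Adora2b: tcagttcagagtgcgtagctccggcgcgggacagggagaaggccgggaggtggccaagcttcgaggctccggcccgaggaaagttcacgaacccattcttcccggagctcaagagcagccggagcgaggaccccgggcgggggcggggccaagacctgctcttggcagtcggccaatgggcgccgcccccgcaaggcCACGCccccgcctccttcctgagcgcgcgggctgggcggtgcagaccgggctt
The Nt5e window held 2 matches, 215 and 180 bases before the start, and the Adora2b window held 1, at 53 bases. Of the 6 genes with a promoter in the table, 3 held the core in this window (Ada is the third), against 37.9% of all 27457 windows of the same length. The full cAMP response element, TGACGTCA, was in 0 of the 6 windows and in 1.7% of all. The GC box, GGGCGG, was in 4 of the 6 and in 32.4% of all. These matches are letters in a window and were not tied to binding of any factor.

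The median Cy5 signal was 3.44 to 4.34 times the local background. On the array of control 1, 68.3% of spots were well above background and 853 were outliers, against 74.8% to 80.2% and 136 to 423 on the other 7. Control 3 stood apart in its genes. Over the genes tested, its median correlation with the other 7 arrays was -0.12, where that of the other arrays lay between 0.16 and 0.32. In the 13 tested of 15 thalamic relay neuron markers, its mean log2 ratio was -1.94, against -0.31 to 0.17 in the other 7 animals. The thalamic defining markers Slc17a6, a glutamate transporter gene, and Prkcd stood at -2.99 and -3.01 in control 3. In occlusion 1 they disagreed, with Prkcd at -0.98 and Slc17a6 at -0.026. The relay markers of occlusion 1 ranged from -1.12 (Ptpn3) to 0.12 (Calb2). The 11 tested of 13 cortical neuron markers averaged 1.60 in control 3 and -1.08 to -0.34 elsewhere, and the 12 tested of 13 markers of meninges averaged 0.97 against -0.52 to 0.002. The 12 striatal markers averaged between -0.22 and -0.03 on all 8 arrays. The 12 tested of 14 markers of choroid plexus and ependyma averaged -0.081, -0.17, 0.48 and -0.46 in the occlusion rats and -0.38, -0.63, -1.07 and -0.65 in the controls. Of these 12, 11 were higher in the occlusion group, beside 50.2% of all genes. An unadjusted p under 0.05 (limma) was reached by 5, beside 3.12% of all genes, and 0 passed the adjusted threshold. Their median difference was 0.60, or 0.36 without control 3. The 4 tested of 6 red blood cell markers were all lower in the occlusion group, as were 13427 of all 26981 genes. Of the 4, 0 had an unadjusted p under 0.05 (limma). Their mean was -0.97 in occlusion 1 and -0.12 to 0.53 elsewhere. The part of these tissues in the results below was not tested. The group difference of each of the 7 genes is given with and without control 3, and since the tissue was bulk, fewer cells of a type and less RNA per cell cannot be told apart.

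The comparison of the groups asks whether obstruction of breathing moved the adenosine system at the level of mRNA. Of the 7 genes, 0 passed an adjusted p of 0.05 (limma, Benjamini-Hochberg over 26981 genes), and over all genes tested 0% passed. At an unadjusted p under 0.05 there were also 0 of the 7, where 3.12% of all genes lay, and in 0 of the 7 did the groups fail to overlap, where 2.54% of all genes had groups that did not. Adora1, Adk and Ada had the higher mean in the occlusion group, which is 3 of 7 beside 50.2% of all genes, and the other 4 had the lower. Without control 3, again 0 of the 7 had an unadjusted p under 0.05 and 0 had groups that did not overlap, where the shares of all genes were 4.21% and 6.27%. With every probe of the array as a row of its own and no filter, 0 of the 10 probes had an unadjusted p under 0.05, where 3.13% of all probes did. The median log2 difference of the 7 was -0.006 and its median size was 0.067, beside 0.0008 and 0.073 over all genes tested.

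**Figure D1:**
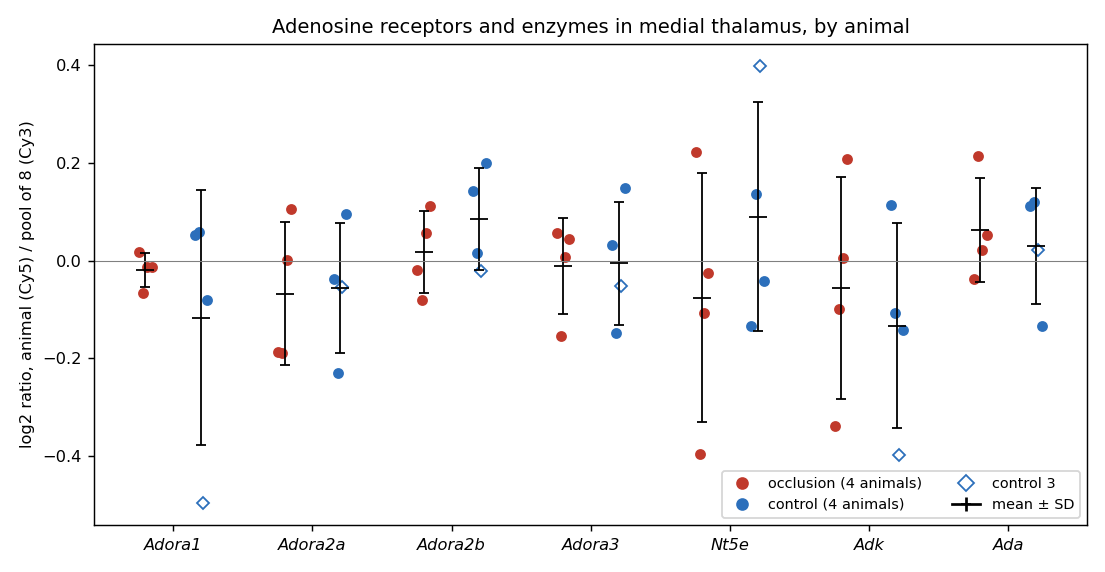
Log2 ratio of each animal (Cy5) to the pool of 8 (Cy3) for the 7 genes, with occlusion animals in red, controls in blue, control 3 as an open diamond, and bars for the group mean ± SD (4 animals each). The groups overlap for every gene, and control 3 is the lowest animal for Adora1 and Adk and the highest for Nt5e.

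Adora1, whose receptor quiets neurons, differed little between the animals other than control 3. Occlusion rats 1 to 4 had log2 ratios of 0.017, -0.067, -0.014 and -0.012, while 0.053, 0.058, -0.50 and -0.081 were measured in control rats 1 to 4. The occlusion rats lay inside the range of the controls, and control 3 was lowest by far. The means were -0.019 ± 0.035 (SD, n = 4) and -0.12 ± 0.26 (SD, n = 4), a difference of 0.098 (SE 0.12, 95% interval -0.18 to 0.37), which did not pass the limma test (adjusted p = 0.974). Without control 3 the sign turned, to -0.029 (SE 0.067, 95% interval -0.18 to 0.12).

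The Adora1 probe was printed 10 times on each array (A_44_P137633, rn3 chr13:47173233-47173292, minus strand, as the files place it), which measures error between spots but not between arrays. Of its 80 spots, the 77 not called outliers by the scanner software were used. The median SD between spots of an array was 0.063, while the SD between the 8 animals was 0.18, or 0.054 without control 3. The first is of single spots and the second of array means, whose SE between spots was 0.014 to 0.031. In control 3 the 10 spots read between -0.57 and -0.26, all under the lowest spot of the other 7 arrays, at -0.18. In this animal Adora1 was at 70.9% of the pool. A second Adora1 probe (A_44_P447514, rn3 chr13:47174428-47174487), with 1 spot per array, read -0.45 in control 3 but also -0.51 in control 1. Its difference between the groups was 0.077. The low Adora1 of control 3 went with its low thalamic and high cortical markers, and their part in it was not tested.

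**Figure D2:**
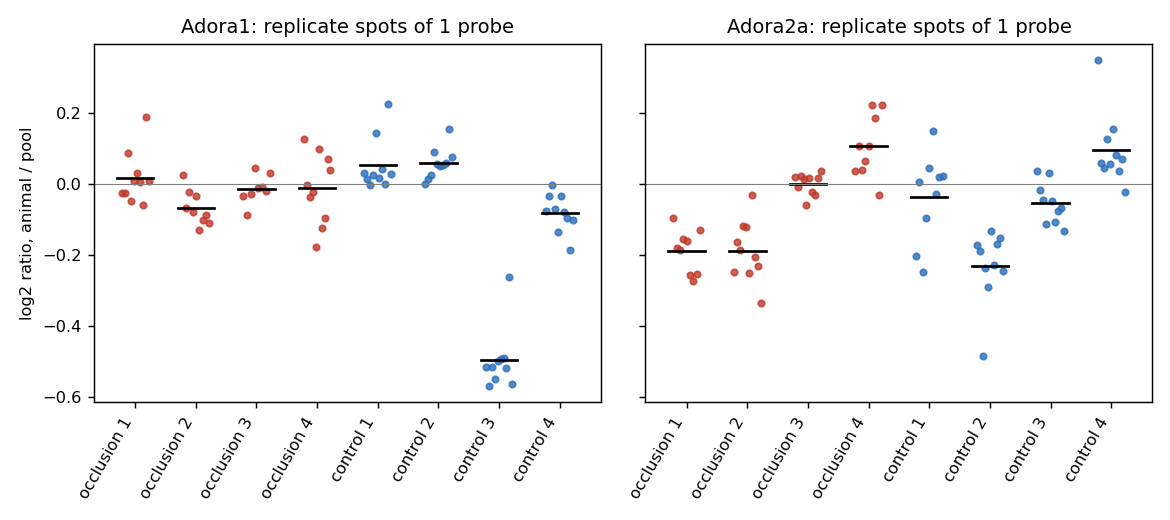
Log2 ratio of animal to pool for every replicate spot of the main Adora1 probe (left) and the main Adora2a probe (right), by animal, with a bar at each array's mean. For Adora1 all 10 spots of control 3 lie below those of the other 7 animals, whereas for Adora2a the animals overlap and control 3 stands among them.

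Adora2a, which raises cyclic AMP and is best known from the striatum, was also printed 10 times (A_44_P1034950, rn3 chr20:13816081-13816140). The occlusion rats, in the same order, had log2 ratios of -0.19, -0.19, 0.0008 and 0.11, and the controls had -0.037, -0.23, -0.054 and 0.096. High and low animals occurred in both groups. The means, -0.067 ± 0.15 and -0.056 ± 0.13 (SD, n = 4 each), differed by -0.011 (SE 0.097, 95% interval -0.23 to 0.21; limma adjusted p = 0.993), and by -0.011 without control 3. The spread between animals, an SD of 0.13, was 1.49 times the median SD of 0.087 between spots of an array. That spread is of array means, whose SE between spots was 0.0095 to 0.042. Within slide 1 the difference was -0.21 and within slide 2 it was 0.19, each from 2 animals against 2. The second Adora2a probe (A_42_P664121, rn3 chr20:13816299-13816358) gave -0.094. Of the striatal markers, Drd2 lay between -0.12 and 0.21 on the 8 arrays, and Ppp1r1b between -0.94 in occlusion 4 and 0.26 in control 3.

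Adora2b, the low-affinity receptor that responds when adenosine is high, had 1 probe (A_44_P1011716, rn3 chr10:48451131-48451190, plus strand). Its log2 ratios were -0.020, -0.080, 0.057 and 0.11 in the occlusion rats and 0.14, 0.016, -0.021 and 0.20 in the controls. The highest values were in controls 1 and 4, but the ranges overlapped. The difference was -0.067 (SE 0.076, 95% interval -0.24 to 0.11; limma adjusted p = 0.974), and -0.10 without control 3.

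Adora3, a receptor linked to immune cells and known at low levels in brain, lay close to the detection limit. Its raw Cy5 signal was 140 to 153 on the 8 arrays, where the lowest signal of any probe well above background was 87.9 to 130, and in Cy3 the probe was well above background on 6 of 8 arrays (A_44_P217451, rn3 chr2:201123299-201123358). Its log2 ratios were 0.057, -0.16, 0.0084 and 0.044 in the occlusion rats and 0.032, -0.15, -0.053 and 0.15 in the controls. Both groups spanned nearly the same range. The difference was -0.006 (SE 0.084, 95% interval -0.20 to 0.19; limma adjusted p = 0.998), and -0.022 without control 3. The Cy3 pool varied as much between arrays (SD 0.14) as the animals did in Cy5 (SD 0.12).

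Nt5e, the enzyme that completes the formation of extracellular adenosine, varied more between animals than the other 6 genes. Its log2 ratios were 0.22, -0.40, -0.11 and -0.024 in the occlusion rats and -0.13, 0.14, 0.40 and -0.041 in the controls (A_44_P219972, rn3 chr8:93653812-93653871, plus strand). Control 3 was highest and occlusion 2 lowest, and the groups overlapped. The SD over the 8 animals, 0.24, lay at the 82.0 percentile of all genes tested. The means, -0.076 ± 0.26 and 0.090 ± 0.23 (SD, n = 4 each), differed by -0.17 (SE 0.15, 95% interval -0.51 to 0.18; limma adjusted p = 0.974), and by -0.063 without control 3. An exact permutation test over all 70 assignments of the animals gave a two-sided p of 0.457, where the smallest this design allows is 0.0286.

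Across the animals, Nt5e ran alongside the mean of the 10 oligodendrocyte markers once control 3 was set aside, with r = 0.897 over 7 animals and 0.399 over all 8. Those marker means were 0.20, -0.35, -0.31 and -0.14 in the occlusion rats and -0.29, -0.014, -0.36 and -0.21 in the controls. Occlusion 1, with the highest oligodendrocyte mean, had the highest Nt5e outside control 3, and occlusion 2 was low in both. This pair was picked out of 91 pairs of gene and marker list after all were seen, and the part of oligodendrocyte content in the spread of Nt5e was not tested.

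Adk, the kinase that clears adenosine inside cells, read -0.34, -0.098, 0.0046 and 0.21 in the occlusion rats and 0.11, -0.11, -0.40 and -0.14 in the controls (A_43_P11606, rn3 chr15:3094324-3094383, minus strand). Occlusion 1 and control 3 were the lowest animals of their groups. The means, -0.056 ± 0.23 and -0.13 ± 0.21 (SD, n = 4 each), differed by 0.077 (SE 0.14, 95% interval -0.24 to 0.39; limma adjusted p = 0.978). Without control 3 the difference was -0.011. The 11 astrocyte markers averaged between -0.11 and 0.14 on the 8 arrays.

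Ada, the deaminase, read -0.037, 0.21, 0.022 and 0.052 in the occlusion rats and 0.11, 0.12, 0.022 and -0.13 in the controls. The highest value was occlusion 2 and the lowest control 4, with the rest between them. The difference was 0.032 (SE 0.084, 95% interval -0.16 to 0.22; limma adjusted p = 0.985), and 0.030 without control 3. The probe behind it (A_44_P434541) spans 1787 bases of the genome (rn3 chr3:154543964-154545750, minus strand), where the other 9 span 60, so it lies across an exon junction. The second Ada probe (A_43_P13102, rn3 chr3:154543361-154543420) gave the opposite sign, -0.11 (SE 0.23). On it control 1 read 0.91, and the pool signal of that array was 73.4 and not well above background, where the other 7 arrays gave 135 to 190.

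**Figure D3:**
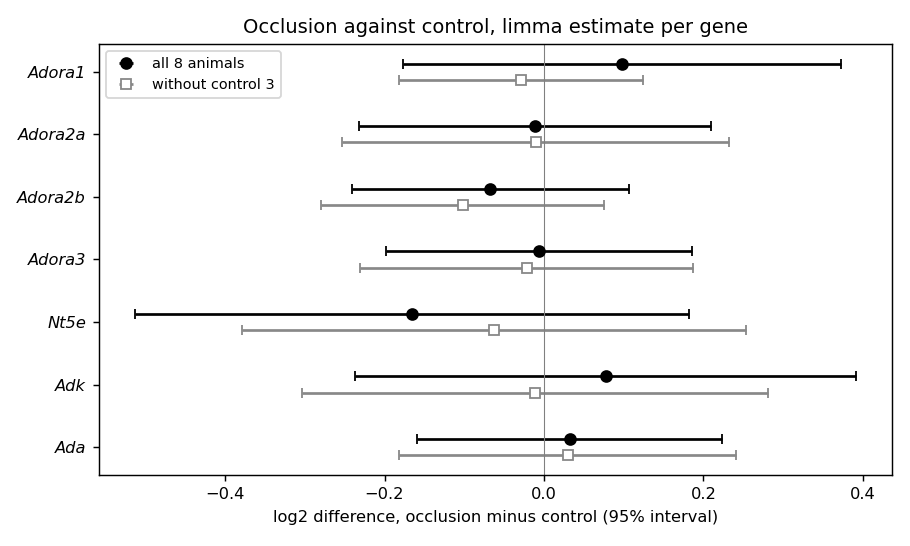
Limma estimates of the log2 difference, occlusion minus control, for the 7 genes with their 95% intervals, from all 8 animals (filled circles) and without control 3 (open squares). Every interval includes 0; leaving out control 3 turns the sign of Adora1 and Adk and shortens the intervals of Adora1, Nt5e and Adk.

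The 95% intervals give the range of differences in the measured ratios. The largest fold in either direction inside them was 1.29 for Adora1, 1.17 for Adora2a, 1.18 for Adora2b, 1.15 for Adora3, 1.43 for Nt5e, 1.31 for Adk and 1.17 for Ada. The background correction adds an offset that shrinks ratios, most at low signals such as those of Adora3 and Ada. None of these folds therefore bounds the change in transcript. On the log ratio of the scanner software, Adora2a differed by -0.074 (SE 0.15, main fit 0.097) and Adora2b by -0.061 (SE 0.12, main fit 0.076). Exact permutation p-values over the 70 assignments were 0.743 for Adora1, 1 for Adora2a, 0.371 for Adora2b, 0.943 for Adora3, 0.629 for Adk and 0.686 for Ada. In both slides Nt5e was lower and Adk higher in the occlusion rats (-0.27 and -0.067 for Nt5e, 0.052 and 0.10 for Adk, each from 2 animals against 2). The controls of slide 1 were control 3 and control 4. They read 0.40 and -0.041 for Nt5e, and -0.40 and -0.14 for Adk. Occlusion 1 and 2 on that slide read -0.34 and -0.098 for Adk, so its sign there rests on control 3. The other 5 genes had opposite signs on the slides.

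The pool offers a second check, because the same RNA was measured in Cy3 on all 8 arrays. For the main probes of Adk, Adora1 and Nt5e the SD over arrays was 3.83, 3.79 and 3.60 times higher in Cy5, where the animals differ, than in Cy3. It was 2.26 times higher for Adora2a and 1.56 times for Adora2b. For Ada and Adora3 the ratios were 1.05 and 0.883, so the animals varied about as much as, or less than, repeated measurements of the pool. In a comparison added after the data were seen, leaving out control 3 gave 3 for Adk, 2.65 for Nt5e, 2.49 for Adora2a, 1.47 for Adora1 and 1.46 for Adora2b. The Adora1 ratio fell the most of these 5. Both dyes and the signal level enter these ratios, and they are a description with no test.

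**Figure D4:**
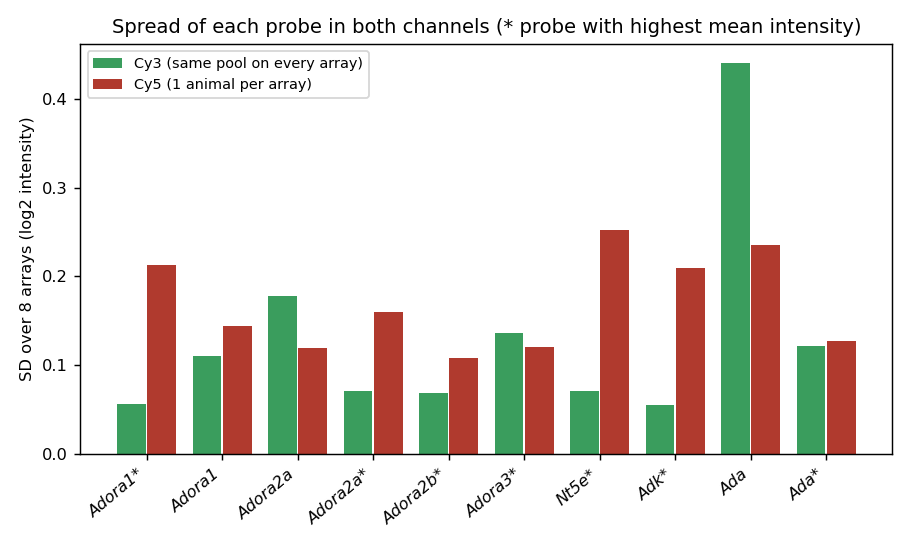
SD over the 8 arrays of the normalised log2 intensity in Cy3 (same pool on every array, green) and Cy5 (1 animal per array, red) for each of the 10 probes, an asterisk marking the probe with the highest mean intensity of its gene. Cy5 bars exceed Cy3 bars most for Adk, Adora1 and Nt5e, and the second probes of Adora2a and Ada have the larger bar in Cy3.

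The values of some receptor genes were correlated. Over the 8 animals the log2 ratios of Adora2a, Adora2b and Adora3 ran together, with r = 0.781 for Adora2a and Adora2b, 0.729 for Adora2a and Adora3, and 0.764 for Adora2b and Adora3. Without control 3 these were 0.83, 0.744 and 0.759. Adora1 did not join them, with r from -0.132 to 0.276, and from -0.391 to -0.068 without control 3. Adora3 lay close to the detection limit, and its Cy5 SD was 0.883 times that of the pool in Cy3. For its pairs with Adora2a and Adora2b, array noise and a shared pattern therefore cannot be told apart. Ada ran opposite to Adora3, with r = -0.840, and -0.872 without control 3. Both signals were low, and the Cy5 SD was only 1.05 and 0.883 times that of the pool in Cy3. The pair used the main Ada probe alone, so array noise and a shared pattern cannot be told apart here. These were picked from 21 pairs after their values were seen, share arrays and pool, and are given as a description.

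For each gene, the 3 other named genes with the most similar pattern over the 8 animals were listed from 13068 candidates. For Adora1 these were Rgs17, a regulator of G-protein signalling (r = 0.996, and 0.959 without control 3), Spata24 (0.984, then 0.797) and Scg2, a secretory granule protein (0.982, then 0.791). As many as 326 candidates had r over 0.9 with Adora1, against 31 without control 3, so much of this likeness went with that animal. For Nt5e they were Samt2l3 (0.964), Slc35d1 (0.954) and Cdh18 (0.948), and for Adk Mpzl1 (0.972), Med8 (0.969) and Pemt (0.966). For Adora2a they were Ube2b (0.964), Lactb (0.936) and Ctsz (0.916), and for Adora2b Cd276 (0.940), Gpihbp1 (0.917) and Kctd7 (0.914). For Adora3 they were Stk10 (0.952), Tmem200c (0.950) and Sgce (0.944), and for Ada Cdk1 (0.931), Nf2 (0.925) and Ccl25 (0.922). These values of r have no test attached.

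The wider adenosine pathway was read from 73 further genes in 6 lists, of which 62 were tested. None passed the adjusted threshold. An unadjusted p under 0.05 was reached by 2, beside 3.12% of all genes, and in 0 did the groups fail to overlap, beside 2.54%. Of the 62, 34 were higher in the occlusion rats and 28 lower, and their median difference on the log2 scale was 0.0074, beside 0.0008 for all genes.

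Of the 8 tested ectonucleotidases, which strip phosphates from nucleotides, 6 were higher and 2 lower, with a median of 0.14. Entpd5, an intracellular relative of these enzymes, had the smallest p. It read 0.60, 0.32, 0.20 and 0.35 in the occlusion rats and -0.30, 0.23, -0.18 and 0.24 in the controls. Its difference was 0.37 (SE 0.14, unadjusted p = 0.030, limma adjusted p = 0.974), and 0.31 without control 3 (unadjusted p = 0.065, limma). Enpp1 differed by -0.19, and by -0.12 without control 3. The transporters that carry adenosine across membranes split 4 higher and 2 lower, and 2 higher and 4 lower without control 3. Slc29a1, an equilibrative transporter, gave 0.31 with control 3 at -1.56, and -0.14 without that animal. Slc29a2 differed by 0.090.

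Of 17 tested genes of intracellular AMP and adenosine metabolism, 6 were higher and 11 lower, with a median of -0.031, or 7 and 10 with a median of -0.067 without control 3. Ak5, a brain adenylate kinase, read -0.61, -0.59, -0.40 and -0.33 in the occlusion rats and -0.49, -0.13, 0.14 and -0.14 in the controls. It differed by -0.32 (unadjusted p = 0.0380, limma adjusted p = 0.974), by -0.23 without control 3 (unadjusted p = 0.083, limma), and by -0.12 on its other probe. Ampd3, an AMP deaminase, differed by 0.37, and by 0.18 without control 3, which read -0.86. Of the 4 proteins that bind adenosine deaminase or release ATP, 1 was higher and 3 lower. Dpp4, the anchor of adenosine deaminase on cells, gave -0.33 with control 3 at 1.13, and -0.011 without it. Panx2, measured in 3 controls, gave -0.16, and -0.074 without control 3.

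Of 11 tested receptors for ATP and ADP, 8 were higher and 3 lower, and 5 higher and 6 lower without control 3. P2rx6 differed by 0.64 (limma adjusted p = 0.974), with control 3 at -1.29 and the other animals between -0.15 and 0.67, and by 0.33 without control 3. P2rx3 differed by 0.14, by 0.020 without control 3, and by 0.074 on its other probe over all 8 animals. Of the 16 G proteins and adenylyl cyclases that the receptors act through, 9 were higher and 7 lower, with a median of 0.0074, or 10 and 6 with a median of 0.018 without control 3. Gnao1, an inhibitory G protein of neurons, differed by -0.23, by -0.29 without control 3, and by -0.12 on its other probe over all 8 animals. Adcy5, the main striatal cyclase, differed by 0.28, with control 3 at -1.07, and by 0.051 without it.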

How the data were processed

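RNA of 4 occluded and 4 control rats was measured on 2-colour Agilent rat arrays. Per the file headers, the authors extracted the arrays with Agilent Feature Extraction 9.5.1.1, and the deposited files hold spot intensity on a linear scale and a log10 ratio of Cy5 over Cy3. The deposited value table matched those ratios on all 45018 spots of each array and was used only for that check. Coordinates are those in the files (rn3); probe sequences were not used here. Genes were named through RefSeq (GRCr8).

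Intensities were corrected by normexp (offset 50) and loess-normalised within arrays, outlier spots left out, and replicate spots averaged. A probe was kept if the software called its Cy5 signal well above background on 4 or more of the 8 arrays, and each gene was represented by its brightest probe. Groups were compared with limma 3.58.1 (R 4.3.3; Benjamini-Hochberg, threshold 0.05) and by exact permutation. The number of animals limits the precision. The fit was tested on simulated data. The 7 genes and all lists were chosen with earlier results of these data known. Named pathway genes are up to 2 per list with the smallest unadjusted p, and those most like a gene are the 3 with the highest r. Alternatives changed background, normalisation, filter, probe, channel, weights, slide, replicate block and each animal. Figures used matplotlib 3.10.9. Correlations of deviations between animals with the same number were -0.13 to 0.14. These show no strong shared pattern, but cannot show whether equal numbers were paired by design.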

Additional observations from a re-analysis of the deposited data

Results flagged for a closer look

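In 52 checks for an animal far from the other 3 of its group, 5 were met, where chance gives about 2.6, or about 1 in 20 groups. The checks share the same animals, and most flags came from control 3, so the count cannot show an excess over chance. None of the flags concerned any of the 7 adenosine genes. All were list means: in control 3, the proteins that bind adenosine deaminase or release ATP at 0.29, thalamic relay neurons at -1.94, cortical neurons at 1.60 and meninges at 0.97, and in occlusion 1, thalamic relay neurons at -0.31. The mean of 0.29 rested largely on Dpp4, at 1.13, while Panx2, Panx1 and Slc17a9 read 0.29, 0.020 and -0.29.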

How the results depend on the processing

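None of the 7 genes passed the threshold in any of 21 alternatives, and the smallest adjusted p among them was 0.859, for Nt5e without control 1. Over all genes 0 passed everywhere except without control 3, where 1 did, so leaving out each animal gave 0 to 1. Nt5e kept its sign in all 21 alternatives, Adora2b in 20, Adora1 and Adk in 19, Adora2a in 17, Ada in 15 and Adora3 in 14. These counts include alternatives that could not turn a sign. Changing the filter, fitting every probe, or adding a slide or replicate block left all 7 estimates unchanged. So did the mean of probes for Adora2b, Adora3, Nt5e and Adk, which have a single probe. Adora3 turned to 0.025 without background correction, 0.0027 on the scanner ratio, 0.13 in Cy5 alone and 0.085 on slide 2. Ada turned to -0.0083 with median centring, -0.0076 on the scanner ratio, -0.039 with the mean of its probes and -0.080 on slide 2. Slide 2 alone gave -0.068 for Adora1, 0.19 for Adora2a and 0.0053 for Adora2b.

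Leaving out each animal gave -0.029 to 0.16 for Adora1, -0.069 to 0.039 for Adora2a, -0.10 to -0.028 for Adora2b, -0.054 to 0.045 for Adora3, -0.27 to -0.059 for Nt5e, -0.011 to 0.17 for Adk and -0.023 to 0.065 for Ada. Signs turned without control 3 (Adora1, Adk), occlusion 4 (Adk), occlusion 1 (Adora2a), occlusion 2 (Adora2a, Adora3, Ada), control 4 (Adora2a, Adora3, Ada) and control 1 (Adora3). The causes were not tested. With a replicate block, the Adora1 difference was 0.098 (SE 0.12) and 0 genes were called. Genes with an unadjusted p under 0.05 were 494 higher and 348 lower, 222 and 60 with median centring, and 367 and 585 on the scanner ratio. Depth is not defined for arrays; signals near background limit Adora3 and Ada most.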
